A study of Mus musculus with 28 samples.

Results

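The effect of papain on lung cells sorted as AEC1 was examined in 4 of the 28 libraries of the series, 2 from papain-treated mice and 2 from untreated mice. The libraries were chosen by their labels, as all AEC1 libraries of these treatment groups. Papain is a plant cysteine protease that provokes allergic lung inflammation when inhaled, and AEC1 is the series' name for type 1 alveolar epithelial cells. All mice were wild-type C57BL/6 animals aged 8 weeks. The papain group received papain at 50 µg per head per day through the nose, and a further AEC1 group of 2 libraries, used for the estimate of the spread and shown for comparison, received the same papain with injections of the calcineurin inhibitor FK506 at 0.2 mg per head per day. The untreated mice received no vehicle as far as the labels say, so papain and the act of nasal dosing cannot be told apart. The labels state neither the sorting markers nor whether a library came from 1 mouse or from pooled mice, and the p-values measure only the spread between these libraries. Libraries were made from 10 ng of total RNA with a kit that reads the 3' ends of transcripts.

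Type 1 cells are the thin, flat cells that cover most of the gas-exchange surface, while type 2 cells secrete surfactant and renew both types after injury. A protease that breaches this layer is known to prompt structural cells to release alarmins and chemokines that call in innate lymphoid cells, monocytes and granulocytes. Fibroblasts and smooth muscle below the epithelium answer injury with matrix and contractile proteins, and the mesothelium covers the lung from outside.

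The values are CPM, which scale a gene's reads to a common library size, and 1 read was worth 1.025 to 1.059 CPM in the papain libraries and 1.122 to 1.15 CPM in the untreated libraries. The reads recovered from these steps numbered 932958 and 968138 in the papain libraries, against 881354 and 860162 in the untreated ones. The libraries varied much within a group. Of 8178 genes tested, 570 (6.97%) were listed at 0 in one papain library and at 50 CPM or more in the other, and 770 (9.42%) did so between the untreated libraries. Across these genes the log2 values of the papain libraries correlated at 0.48 with each other and those of the untreated libraries also at 0.48, against 0.40 to 0.45 between the groups, where genes are not independent replicates. The glycolysis gene Gapdh, active in all cells, had 0 CPM in all 4 libraries, so a 0 says only that a gene was listed at 0.

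The cells sorted as AEC1 carried few transcripts of the defining type 1 genes and many of other lung cells. Ager, a receptor abundant in these cells, had 37.1 and 110.7 CPM with papain, against 50.5 and 75.9 CPM without. Hopx and Rtkn2 were at or near 0 throughout, and Epcam and Cdh1, which nearly all epithelium carries, were listed at 0 in both papain libraries and, for Cdh1, in both untreated ones. By contrast all 14 mesothelial markers were above 0 in each of the 4 libraries. Their summed level was 8511 and 20000 CPM with papain and 21947 and 19418 CPM without. Within this sum, Igfbp5 alone held 2229.9 and 6491.2 CPM with papain and 10041 and 9322.5 CPM without. Msln held 410.8 and 588.4 CPM with papain and 685.7 and 663.6 CPM without. The 20 fibroblast markers summed to 17238 and 7142 CPM with papain and to 9250 and 6821 CPM without. The 19 type 1 markers summed to only 1313 and 1189 CPM with papain and 1430 and 1842 CPM without. The label is therefore used below as the name of the sorted libraries, not of a pure cell type.

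Lymphocyte markers were nearly absent. Of 18 lymphocyte markers, 17 and 18 were at 0 in the papain libraries and 17 in each untreated library, and the leukocyte gene Ptprc stood at 7.4 and 0 CPM with papain, against 23.6 and 31.1 CPM without. The endothelial list summed to 849 and 1345 CPM with papain and 2476 and 2267 CPM without, although Pecam1, Cdh5, Tek and Vwf were at or near 0. Nearly all of it came from Aqp1 and Kdr. Since these are bulk samples, fewer cells of a type and less RNA per cell cannot be told apart in any result below.

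**Figure D1:**
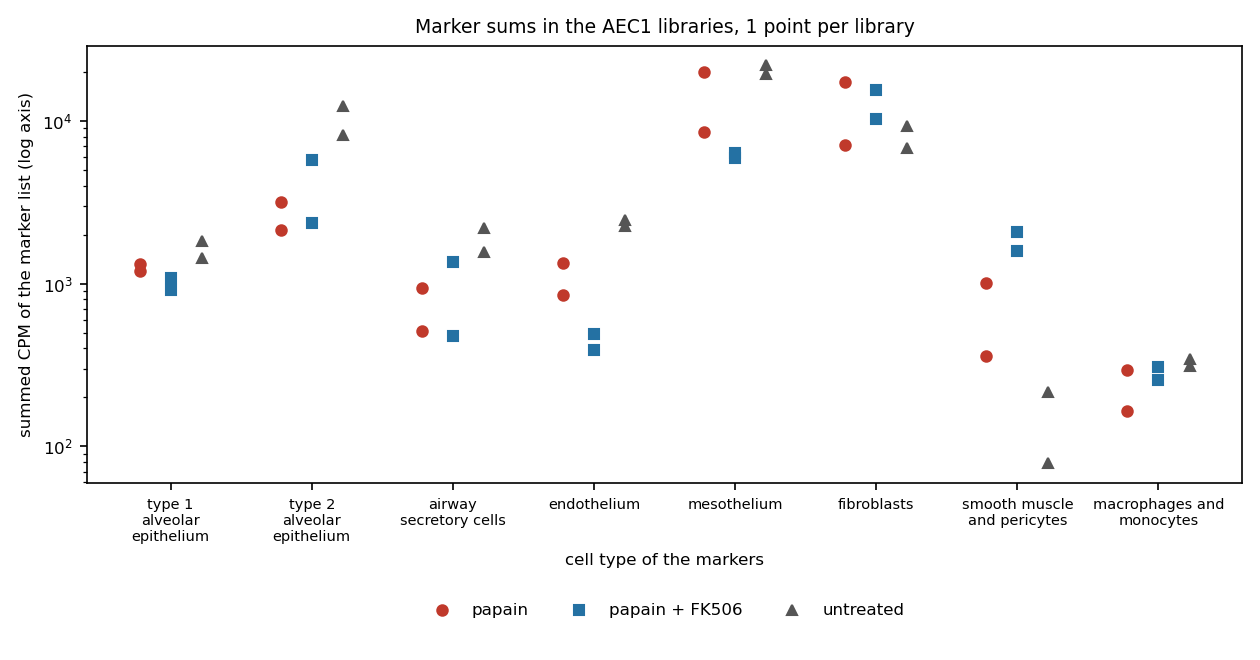
Summed CPM of 8 lists of cell type markers (x axis) on a log y axis, with 1 point per AEC1 library and the papain libraries left of the papain and FK506 and the untreated libraries. The type 2 sums of the papain libraries (3189 and 2150 CPM) lie below those of the untreated libraries (8226 and 12336 CPM), while the smooth muscle sums (1012 and 361 CPM) lie above theirs (78.5 and 216 CPM).

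In the plot of marker sums, the papain libraries stood apart from both untreated libraries in the type 1, type 2, airway secretory, endothelial and macrophage lists, where they were lower, and in the smooth muscle list, where they were higher. The macrophage sums lay close, at 297 and 164 CPM with papain and 311 and 344 CPM without. Of the 20 macrophage markers, 15 and 17 were at 0 in the papain libraries and 15 in each untreated library. Of the 6 tested, 3 had a positive log2 difference and 3 a negative one. Among lists not plotted, the general epithelial markers summed to 405.6 and 563.9 CPM with papain and 805.8 and 838.7 CPM without. Krt19, also a mesothelial marker, held 188.5 and 265.5 CPM of this sum with papain and 673.4 and 447.4 CPM without. Of 7 general epithelial markers tested, 2 (28.6%, against 19.2% of all genes) were higher in both papain libraries and 1 (14.3%, near the 14.2% of all genes) lower. The ciliated cell markers summed to 167.3 and 62.6 CPM with papain and 189.7 and 226.6 CPM without. Of 3 ciliated cell markers tested, 1 (33.3%) was higher in both papain libraries and 1 (33.3%) lower. Red cell and platelet markers summed to 77.3 and 469.5 CPM with papain and 6.7 and 43.8 CPM without, mostly from the haemoglobin gene Hba-a2 in the papain libraries (DESeq2 adjusted p = 0.041). The part of these cells in the results below was not tested. The fibroblast and mesothelial sums did not separate completely. For fibroblasts both papain libraries were above their lower untreated counterpart, and for mesothelium papain replicate 2 lay between the untreated libraries. The share of mitochondrially encoded transcripts also differed within the papain group, at 90292 CPM in replicate 1 and 303321 CPM in replicate 2, against 191790 and 202742 CPM in the untreated libraries. With the mitochondrial and ribosomal RNA genes removed and the rest rescaled, the main test gave the same count of calls as with them.

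No gene passed the main test of papain against untreated. With limma on log2(CPM + 2), 0 of 8178 genes (0%) had an adjusted p below 0.05. Without adjustment, 767 genes (9.38%) were below 0.05, where 409 are expected by chance, of which 487 (5.96%) stood higher with papain and 280 (3.42%) lower. The 2 papain libraries lay above both untreated libraries for 1569 genes (19.2%) and below both for 1159 genes (14.2%). The median gene stood 0.17 higher on the log2 scale with papain, so the gene lists below are read against that shift. The filter counted more papain-treated than untreated libraries, since it included the papain and FK506 group, and so can admit more genes that stood high with papain. The median was 0.11 with the papain and untreated libraries only (6570 genes) and 0 without a filter (11296 genes). The part of this selection in the shift and in the counts of higher and lower genes was not tested. The same comparison on the recovered reads gave 15 genes higher (0.183%) and 0 lower with edgeR, and 216 higher (3.83%) and 109 lower (1.93%) of 5641 with DESeq2, while limma's voom gave 0. The balance of the DESeq2 calls turned with the libraries used: 140 were higher and 223 lower without papain replicate 1, and 177 higher and 237 lower without papain replicate 2. Without untreated replicate 1 there were 395 higher and 84 lower, and without untreated replicate 2 464 higher and 82 lower. Robust limma gave 13, all higher.

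All 15 genes that edgeR called higher are named here, after their values were seen. Of these, Acta2, Marcks, Nexn, Serpina3n, Prc1, Cck, Ccl2 and Vcam1 were at 0 in both untreated libraries. They passed the filter through papain-treated libraries alone and could not come out lower. Eef1g, Cct7, Saa3, Lbh and Retnla, below 10 CPM in both untreated libraries, also passed it through papain-treated libraries alone. The selection therefore favours calls in the higher direction. Acta2 (smooth muscle actin, chr19:34240336-34255585, GRCm38.p6) stood at 549.5 and 114.8 CPM in the papain libraries and was listed at 0 in both untreated libraries. Nexn, the actin-binding protein nexilin, stood at 520.9 and 136.3 CPM with papain, against 0 CPM in both untreated libraries. Marcks (chr10:37133243-37138926), a membrane and actin-binding substrate of protein kinase C, stood at 390.7 and 151.7 CPM with papain, against 0 CPM in both untreated libraries. For all 3 the papain libraries lay apart from the untreated ones, and replicate 1 was the higher of the pair. Their edgeR adjusted p-values were 0.00051 for Acta2, 0.00051 for Marcks and 0.00067 for Nexn, against limma adjusted p-values of 0.14 for each. In the papain and FK506 libraries these genes stood at 1271.9 and 839.8 CPM (Acta2), 428.3 and 513.1 CPM (Nexn) and 723.5 and 613.4 CPM (Marcks).

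Several of the 15 encode secreted proteins of wound and acute-phase responses. Spp1 (osteopontin, chr5:104435111-104441053), a matricellular protein and cytokine, stood at 746.5 and 787.3 CPM with papain, against 1.1 and 10.4 CPM without, a log2 difference of 6.97 ± 0.94 (SE, n = 2 each, edgeR adjusted p = 0.0028). The papain replicates nearly coincided and lay far above both untreated libraries. Serpina3n, a secreted serine protease inhibitor, stood at 324 and 88.2 CPM with papain, against 0 CPM in both untreated libraries (edgeR adjusted p = 0.0028). Timp1, an inhibitor of metalloproteinases, stood at 654.3 and 213.2 CPM with papain, against 3.4 and 27.6 CPM without (edgeR adjusted p = 0.024). For both inhibitors the papain libraries differed from each other but lay above the untreated ones. Saa3, an acute-phase serum amyloid, stood at 1954.6 CPM in papain replicate 1 and 35.9 CPM in replicate 2, against 1.1 and 1.2 CPM without (edgeR adjusted p = 0.011).

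The chemokine Ccl2, which attracts monocytes, stood at 121.8 and 73.8 CPM with papain, against 0 CPM in both untreated libraries (edgeR adjusted p = 0.018). Vcam1, the endothelial and stromal adhesion molecule that integrins of leukocytes bind, stood at 194.8 and 33.8 CPM with papain, against 0 CPM in both untreated libraries (edgeR adjusted p = 0.024). Retnla, a secreted resistin-like protein that IL-4 and IL-13 induce, stood at 155.6 and 593.6 CPM with papain, against 1.1 and 0 CPM without (edgeR adjusted p = 0.020). It is the only one of these 3 in which replicate 2 was the higher. The remaining 5 were Eef1g, Prc1, Cct7, Cck and Lbh. Eef1g, a subunit of translation elongation factor, stood at 292.2 and 152.7 CPM with papain, against 0 and 1.2 CPM without. Prc1, which bundles microtubules of the mitotic spindle, stood at 188.5 and 223.5 CPM with papain, against 0 CPM without. Cct7, a subunit of the chaperonin that folds actin and tubulin, stood at 141.9 and 215.3 CPM with papain, against 6.7 and 4.6 CPM without. In all 3 both papain libraries lay above both untreated ones. The peptide hormone gene Cck stood at 229.8 and 266.5 CPM with papain, against 0 CPM without. Lbh, a transcriptional cofactor, stood at 295.4 and 54.3 CPM with papain, against 1.1 and 1.2 CPM without.

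**Figure D2:**
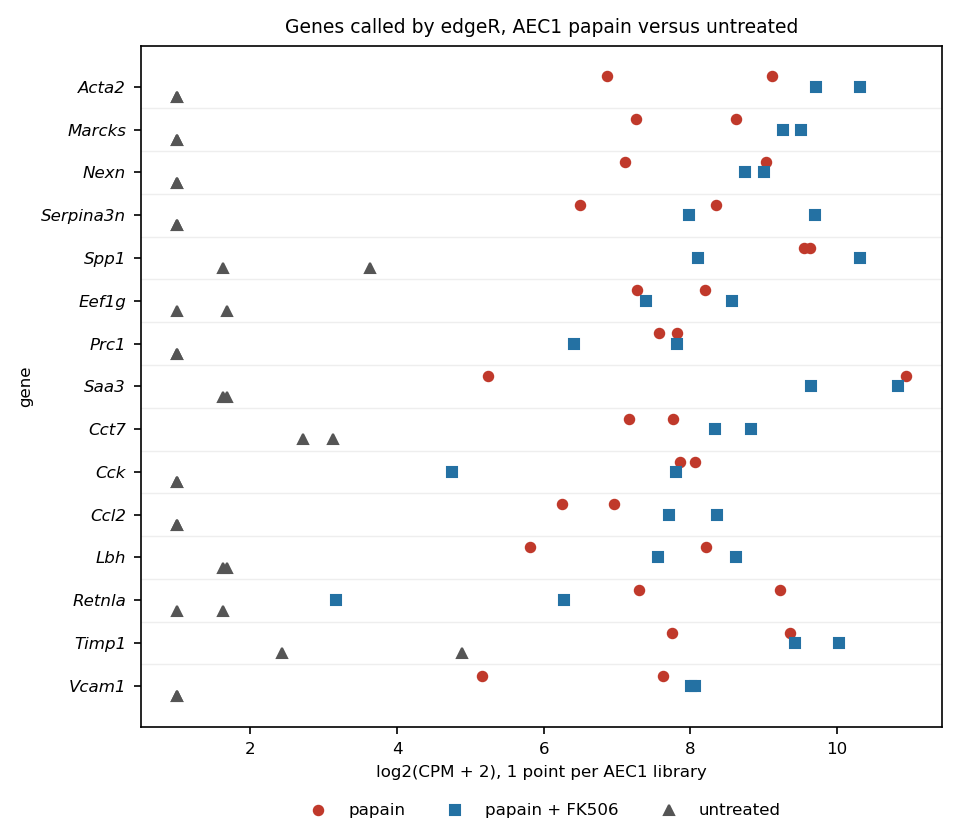
Levels of the 15 genes called by edgeR, as log2(CPM + 2) on the x axis with 1 point per AEC1 library, the papain libraries above the papain and FK506 and the untreated libraries in each row. Each papain point lies right of both untreated points of its gene; Saa3 shows the widest gap between papain replicates (1954.6 and 35.9 CPM).

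These calls rest on both libraries of each group. Without papain replicate 1 edgeR called 2 genes (Acta2 and Marcks), without papain replicate 2 it called 5 (those 2 with Nexn, Serpina3n and Saa3), and without either untreated library it called 0. Of the 13 genes that robust limma called, 7 were among the 15. The others, chosen after their values were seen, were Mgp, Col6a2, Col6a3, Tnc, Mt2 and Cd63.

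Surfactant and other type 2 genes stood lower with papain. Of 20 listed, 17 were tested, and 13 of these 17 (76.5%, against 14.2% of all genes) were lower in both papain libraries than in either untreated library. None was higher in both, and 7 of 17 (41.2%, against 3.42%) had an unadjusted limma p below 0.05. The median log2 difference was -2.03. DESeq2 called 6 of the 15 members it tested lower and none higher, against 109 (1.93%) lower and 216 (3.83%) higher of all 5641 genes. Sftpc (surfactant protein C, chr14:70520941-70524081) stood at 931.8 and 453.1 CPM with papain, against 2304.1 and 3967.7 CPM without, a log2 difference of -2.19 ± 0.57 (DESeq2 adjusted p = 0.00068). Sftpa1 (surfactant protein A, chr14:41131788-41136373) stood at 375.9 and 597.7 CPM with papain, against 1704.8 and 2300.1 CPM without, a log2 difference of -2.03 ± 0.48. Sftpb (surfactant protein B, chr6:72304610-72314373) stood at 196.9 and 107.6 CPM with papain, against 673.4 and 638.3 CPM without. For all 3 the groups did not overlap, and their mean was 4.11 to 4.53 times as high in untreated as in papain libraries. Sftpc in the papain and FK506 libraries, at 624.3 and 1672.6 CPM, was also below both untreated libraries. Rab27a, a small GTPase of secretory vesicles, was at 0 in both papain libraries and at 32.5 and 13.8 CPM in the untreated ones.

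Airway secretory genes stood lower as well. Of 9 tested, 5 (55.6%, against 14.2% of all genes) were lower in both papain libraries and 1 (11.1%, against 19.2%) higher. Of the 9, 4 (44.4%, against 3.42%) were lower with an unadjusted limma p below 0.05, with a median log2 difference of -1.86. Cbr2, a carbonyl reductase abundant in club and type 2 cells, stood at 86.8 and 3.1 CPM with papain, against 523 and 576.2 CPM without. Scgb3a2, a secretoglobin of club cells, was at 0 in both papain libraries and at 34.8 and 69 CPM in the untreated ones. Gsta3, a glutathione transferase, stood at 135.5 and 69.7 CPM with papain, against 374.9 and 293.3 CPM without (log2 difference -1.73 ± 0.57, DESeq2 adjusted p = 0.020). In each of these genes neither papain library reached the lower untreated library. Since the type 2 and airway marker lists are also the measure of those cells in the sort, these counts and the marker sums describe the same values.

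The type 1 genes did not move together. Of 13 tested, 1 (7.69%, against 19.2% of all genes) was higher in both papain libraries and 3 (23.1%, against 14.2%) were lower, and the median log2 difference was -0.87. Pdpn, the podoplanin gene that marks type 1 cells, mesothelium and lymphatic vessels, stood at 368.5 and 310.6 CPM with papain, against 98.8 and 125.4 CPM without, a log2 difference of 1.61 ± 0.55 (limma adjusted p = 0.45; DESeq2 adjusted p = 0.039). Its groups did not overlap. Gprc5a, a membrane receptor, stood at 11.6 and 0 CPM with papain, against 53.9 and 141.5 CPM without, and Aqp5, a water channel, at 50.8 and 4.1 CPM with papain, against 47.1 and 74.8 CPM without.

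Mesothelial genes leaned lower, with 7 of 14 (50.0%, against 14.2% of all genes) lower in both papain libraries and 1 (7.14%, against 19.2%) higher, a median log2 difference of -0.96 and no DESeq2 call. Igfbp5, an insulin-like growth factor binding protein, stood at 2229.9 and 6491.2 CPM with papain, against 10041 and 9322.5 CPM without. The mesothelial marker Msln stood at 410.8 and 588.4 CPM with papain, against 685.7 and 663.6 CPM without. Both were lower in both papain libraries, but for Igfbp5 the papain replicates lay further apart than papain replicate 2 and the untreated libraries.

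Collagen genes stood higher with papain. Of 21 tested, 12 (57.1%, against 19.2% of all genes) were higher in both papain libraries and 0 lower, 9 (42.9%, against 5.96%) had an unadjusted limma p below 0.05, and the median log2 difference was 2.17. DESeq2 called 6 of the 20 it tested, all higher, against 216 (3.83%) higher and 109 (1.93%) lower of all 5641 genes. Col6a2 (chr10:76595756-76623630), a chain of the microfibril-forming collagen VI, stood at 749.6 and 672.5 CPM with papain, against 96.5 and 126.5 CPM without, a log2 difference of 2.69 ± 0.47 (limma adjusted p = 0.33; DESeq2 adjusted p = 2.9e-08). Col6a3, its partner chain, stood at 972 and 464.4 CPM with papain, against 159.4 and 98.9 CPM without, with a log2 difference of 2.42 ± 0.45. The chains of collagen V, which starts fibrils, behaved alike. Col5a1 stood at 661.8 and 529 CPM with papain, against 197.5 and 103.5 CPM without, and Col5a3 at 274.2 and 196.8 CPM with papain, against 21.3 and 46 CPM without. In all 4 genes both papain libraries exceeded both untreated libraries. The fibrillar collagen Col3a1 stood at 4990.2 and 2403 CPM with papain, against 1832.8 and 860.3 CPM without (log2 difference 1.49 ± 0.40), without overlap. Col1a1, at 4018.2 and 1703.8 CPM with papain and 1804.7 and 859.1 CPM without, did overlap.

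The wider matrix list held 31 tested genes. Of these, 10 (32.3%, against 19.2% of all genes) were higher in both papain libraries and 4 (12.9%, near the 14.2% of all genes) lower. At an unadjusted limma p below 0.05, 7 (22.6%, against 5.96%) were higher and 0 lower. Tnc (tenascin C), a matrix protein of wound beds, stood at 407.6 and 260.4 CPM with papain, against 0 and 21.9 CPM without. Sparc, a collagen-binding protein, stood at 1593.5 and 968.8 CPM with papain, against 598.2 and 532.5 CPM without, a log2 difference of 1.16 ± 0.33 (DESeq2 adjusted p = 0.011). Mgp (matrix Gla protein, chr6:136872435-136875823), an inhibitor of calcification, was one of the most abundant transcripts at 12283 and 10490 CPM with papain, against 3949.5 and 4463.4 CPM without. Its replicates were close in both groups, and its papain mean was 2.71 times the untreated mean (log2 difference 1.46 ± 0.25, limma adjusted p = 0.33, robust limma adjusted p = 0.0069). Of 18 tested fibroblast markers, 3 (16.7%, against 19.2% of all genes) were higher in both papain libraries and 2 (11.1%, against 14.2%) lower. At an unadjusted limma p below 0.05, 3 (16.7%, against 5.96%) were higher and 0 lower, and the median log2 difference was 0.10. Dcn (decorin), a small proteoglycan of fibroblasts, stood at 2658.7 and 1618.7 CPM with papain, against 3494.9 and 3002.8 CPM without, the opposite direction to Col3a1.

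Contractile genes leaned higher. Of 22 tested, 2 were at 0 in all 4 libraries and had passed the filter through the papain and FK506 libraries alone. Of the 22, 9 (40.9%, against 19.2% of all genes) were higher in both papain libraries and 1 (4.55%, against 14.2%) lower. Acta2 and any other member at 0 in both untreated libraries passed the filter through papain-treated libraries alone and could not come out lower. The selection therefore favours the higher share. At an unadjusted limma p below 0.05, 7 (31.8%, against 5.96%) were higher and 0 lower, and the median log2 difference was 0.67. Besides Acta2, Actn1 (an actinin that cross-links actin) stood at 476.5 and 360.9 CPM with papain, against 125.7 and 153 CPM without (log2 difference 1.59 ± 0.43, DESeq2 adjusted p = 0.0019). Actb, the cytoplasmic actin, stood at 3922.9 and 2314.8 CPM with papain, against 1949.5 and 1314.5 CPM without, and Cnn2, a calponin, at 232.9 and 90.2 CPM with papain, against 16.8 and 32.2 CPM without. In all 3 the papain libraries stood above both untreated ones. Tagln, a smooth muscle marker, stood at 21.2 and 40 CPM with papain, against 0 CPM without, while Myh11, the heavy myosin of mature smooth muscle, stood at 0 and 30.8 CPM with papain, against 0 and 33.4 CPM without, and Cnn1 was listed at 0 in all 4 libraries. The smooth muscle marker sums given above, which include Acta2, were higher with papain, and their part in the contractile result was not tested.

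Contractile promoters often carry the CArG box that serum response factor binds. RefSeq promoter windows of 300 bases (GRCm38.p6) were searched on both strands for the exact form CC, 6 bases of A or T, GG. Boxes with another base inside were not counted. Of 23 contractile-list genes with a window, 6 held this exact form, against 488 of all 27025 genes (1.81%). Since contractile promoters often carry the box, this count describes the list that was chosen, not a response to papain. A match is a description of the sequence, not of binding in these cells. Acta2's window held no exact match, though it holds ccctatatgg and ccttgtttgg, which have a C or a G among the A and T bases. Of the 6 genes, Acta1, Actc1 and Actg1 were listed at 0 in the papain and untreated libraries and were not tested. The windows of Cnn2 (chr10:79988350-79988649, plus strand) and Myl6 (chr10:128492960-128493259, minus strand) are shown because these were the box-holding genes above 0 in the libraries, and both were higher in both papain libraries; another window of Myl6 held no box, and capitals mark the CArG box.
Cnn2: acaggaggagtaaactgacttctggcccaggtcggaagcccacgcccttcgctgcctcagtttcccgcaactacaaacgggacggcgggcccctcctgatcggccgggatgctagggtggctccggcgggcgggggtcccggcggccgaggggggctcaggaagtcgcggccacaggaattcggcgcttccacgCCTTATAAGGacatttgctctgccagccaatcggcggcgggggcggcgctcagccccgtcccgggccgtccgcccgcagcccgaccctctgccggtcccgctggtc
Myl6: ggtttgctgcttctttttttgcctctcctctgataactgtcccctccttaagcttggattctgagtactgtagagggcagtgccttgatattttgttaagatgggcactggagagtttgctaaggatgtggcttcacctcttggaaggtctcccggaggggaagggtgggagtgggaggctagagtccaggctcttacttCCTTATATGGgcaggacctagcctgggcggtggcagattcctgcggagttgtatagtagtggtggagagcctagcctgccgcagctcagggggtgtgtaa
Myl6, a myosin light chain, stood at 568.6 and 688.9 CPM with papain, against 410.8 and 403.7 CPM without, a difference of 0.64 ± 0.43 on the log2 scale (limma adjusted p = 0.74). Myl9, whose window also holds a CArG box, was at 0 in all 4 libraries.

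Genes of cell division stood higher with papain. Of 30 tested, 13 (43.3%, against 19.2% of all genes) were higher in both papain libraries and 1 (3.33%, against 14.2%) lower. At an unadjusted limma p below 0.05, 7 (23.3%, against 5.96%) were higher and 0 lower, and the median log2 difference was 2.13. Birc5 (survivin), a subunit of the chromosomal passenger complex, stood at 132.4 and 34.9 CPM with papain, against 0 CPM in both untreated libraries (DESeq2 adjusted p = 0.00026). Cdk1, the mitotic kinase, stood at 83.6 and 82 CPM with papain, against 0 CPM in both untreated libraries (DESeq2 adjusted p = 0.0094). Cenpf, a kinetochore protein, stood at 266.8 and 81 CPM with papain, against 0 and 26.5 CPM without, and Cks1b, a small partner of cyclin-dependent kinases, at 163.1 and 145.6 CPM with papain, against 40.4 and 41.4 CPM without. The groups did not overlap in any of these. Birc5 and Cdk1 passed the filter only through the papain and the papain and FK506 libraries, so neither could come out lower. Such members favour the share of the list that stood higher. The summed level of the list was 2637 and 1114 CPM with papain and 591 and 866 CPM without.

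**Figure D3:**
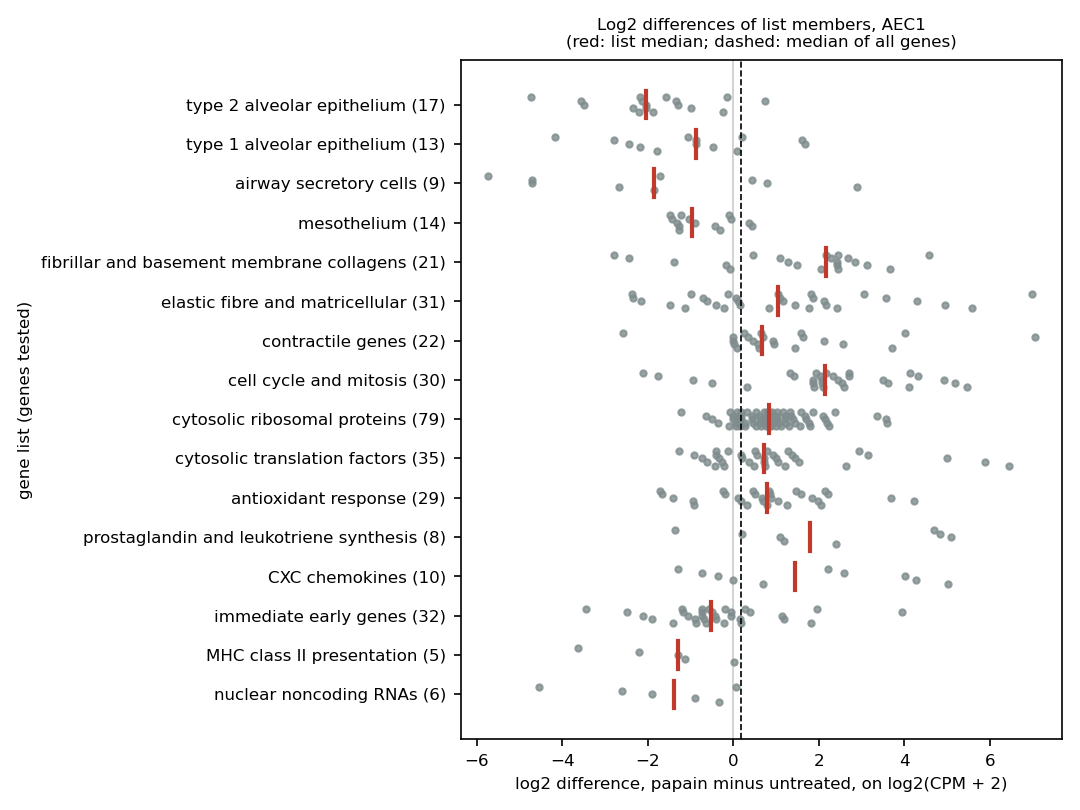
Log2 differences (papain minus untreated, on log2(CPM + 2), x axis) of the tested members of 16 gene lists (y axis, with the number tested), where each grey point is a gene, red marks the list median and the dashed line the median of all genes at 0.17. Collagens (median 2.17) and cell cycle genes (2.13) lie furthest right, and type 2 (-2.03) and airway secretory genes (-1.86) furthest left.

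Ribosomal protein genes shifted as a group by a small amount. Of 79 tested, 71 had a positive log2 difference. In both papain libraries, 41 (51.9%, against 19.2% of all genes) were higher and 2 (2.53%, against 14.2%) lower. Of the 79, 21 (26.6%, against 5.96%) had an unadjusted limma p below 0.05, all higher. The median log2 difference was 0.82. Their summed level was 58875 and 35144 CPM with papain and 32828 and 25010 CPM without, so that papain replicate 2 lay close to the higher untreated library. Rplp0, a protein of the ribosomal stalk, stood at 599.3 and 454.1 CPM with papain, against 84.2 and 164.5 CPM without (log2 difference 2.15 ± 0.53, DESeq2 adjusted p = 0.0013). Rplp1, another stalk protein, stood at 4308.3 and 2619.3 CPM with papain, against 1848.5 and 1526.1 CPM without (log2 difference 1.02 ± 0.28). Rps2, of the small subunit, stood at 500.8 and 305.5 CPM with papain, against 110 and 133.4 CPM without. Among translation factors, Eif3i, a subunit of initiation factor 3, stood at 98.5 and 124 CPM with papain, against 0 CPM without (DESeq2 adjusted p = 7.9e-05). Ribosomal protein genes have many processed copies in the genome, so their levels are uncertain where the counting could split reads between copies.

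Antioxidant and metal-binding genes stood higher, with 13 of 29 (44.8%, against 19.2% of all genes) higher in both papain libraries and 5 (17.2%, near the 14.2% of all genes) lower. Of the 29, 7 (24.1%, against 5.96%) had an unadjusted limma p below 0.05 in the higher direction and 2 (6.90%, against 3.42%) in the lower, and the median log2 difference was 0.79. The metallothioneins, small proteins that bind zinc and copper, are among them. Mt2 (chr8:94172618-94173567) stood at 2218.2 and 1905.8 CPM with papain, against 827.2 and 587.7 CPM without, a log2 difference of 1.58 ± 0.30 (limma adjusted p = 0.40; robust limma adjusted p = 0.035; DESeq2 adjusted p = 5.7e-05). Mt1 (chr8:94178883-94180327), its neighbour, stood at 549.5 and 561.8 CPM with papain, against 140.3 and 176 CPM without, a log2 difference of 1.83 ± 0.44. Neither gene's groups overlapped, and the papain and FK506 libraries stood at 2351.3 and 2156.2 CPM for Mt2. Txn1 (thioredoxin) stood at 1034.5 and 472.6 CPM with papain, against 289.6 and 79.4 CPM without, and Txnrd1, the reductase that recharges it, at 135.5 and 71.8 CPM with papain, against 0 and 12.7 CPM without.

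The promoter windows of both metallothioneins are shown because the genes lie side by side and stood higher together. The core of the metal response element was searched on both strands as TGCACNC and TGCGCNC, which occur in the windows of 7630 of 27025 genes (28.2%). Capitals mark the matches, 4 in the window of Mt2 (chr8:94172368-94172667, plus strand) and 3 in that of Mt1 (chr8:94178839-94179138, plus strand).
Mt2: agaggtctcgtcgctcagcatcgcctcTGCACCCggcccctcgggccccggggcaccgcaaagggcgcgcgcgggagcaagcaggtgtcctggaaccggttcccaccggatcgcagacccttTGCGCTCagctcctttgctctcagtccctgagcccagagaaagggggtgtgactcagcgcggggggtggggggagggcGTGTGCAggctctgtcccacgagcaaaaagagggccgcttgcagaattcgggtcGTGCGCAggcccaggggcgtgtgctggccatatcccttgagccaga
Mt1: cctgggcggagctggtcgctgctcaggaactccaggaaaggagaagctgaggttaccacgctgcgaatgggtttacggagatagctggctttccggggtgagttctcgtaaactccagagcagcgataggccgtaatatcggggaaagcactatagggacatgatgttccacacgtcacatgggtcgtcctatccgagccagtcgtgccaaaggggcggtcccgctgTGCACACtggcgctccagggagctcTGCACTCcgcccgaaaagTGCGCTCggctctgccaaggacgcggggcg
The match is a description of the sequence, not of binding in these cells.

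Signals to other cells gave a mixed picture. The alarmin genes Tslp and Il25 were at 0 in all 4 libraries. Il33 stood at 0 and 87.1 CPM with papain, against 145.9 and 17.3 CPM without, with the groups overlapping. Areg (amphiregulin), an epidermal growth factor receptor ligand, was at 0 in both papain libraries and at 86.4 and 29.9 CPM in the untreated ones. Csf1, the macrophage growth factor, stood at 189.5 and 199.9 CPM with papain, against 40.4 and 77.1 CPM without, a log2 difference of 1.79 ± 0.66 (limma adjusted p = 0.49).

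All 18 listed CC chemokine genes were at 0 in both untreated libraries. The 3 that were tested therefore passed the filter only through the papain or the papain and FK506 libraries, and none could come out lower. Of the 3, Ccl2 and Ccl7 (66.7%, against 19.2% of all genes) were higher in both papain libraries, a share that this selection favours. Ccl7 (chr11:82045712-82047525), which lies beside Ccl2 (chr11:82035577-82037452) and also attracts monocytes, stood at 74.1 and 41 CPM with papain, against 0 CPM in both untreated libraries (DESeq2 adjusted p = 0.0051). The eosinophil chemokine Ccl11 stood at 34.9 and 0 CPM with papain, against 0 CPM without, and was not tested. Among 10 CXC chemokines tested, 1 was at 0 in all 4 libraries and had passed the filter through the papain and FK506 libraries alone. Of the 10, 3 (30%, against 19.2% of all genes) were higher in both papain libraries and 1 (10%, against 14.2%) was lower. Cxcl12, a stromal ligand that retains leukocytes, stood at 135.5 and 44.1 CPM with papain, against 0 and 1.2 CPM without (DESeq2 adjusted p = 0.001). The neutrophil chemokine Cxcl1 stood at 169.4 and 43.1 CPM with papain, against 14.6 and 0 CPM without. Cxcl2, another neutrophil chemokine, stood at 558 and 17.4 CPM with papain, against 141.4 and 124.2 CPM without, so that the papain libraries lay on either side of the untreated ones. Neutrophil markers summed to 141 and 46.2 CPM with papain and 0 and 3.5 CPM without, but S100a8 and S100a9 did not exceed 16.9 CPM and most of the sum was Mmp8.

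Of 18 listed genes of prostaglandin and leukotriene synthesis, 8 were tested. Of the 8, 6 (75%, against 19.2% of all genes) were higher in both papain libraries and 0 (against 14.2%) lower. Among the 6, Pla2g4a, Ptges and Lta4h were at 0 in both untreated libraries. These passed the filter through papain-treated libraries alone and could not come out lower, so the selection favours this share. Pla2g4a passed it through the papain libraries without FK506 alone. Pla2g4a, the phospholipase that frees arachidonic acid, stood at 56.1 and 70.7 CPM with papain, against 0 CPM in both untreated libraries. Ptges, a prostaglandin E synthase, stood at 51.9 and 54.3 CPM with papain, against 0 CPM in both untreated libraries (DESeq2 adjusted p = 0.013). Ptgis, the prostacyclin synthase, stood at 600.3 and 721.7 CPM with papain, against 278.3 and 351.9 CPM without, a log2 difference of 1.09 ± 0.47. Pla2g4a alone was at 0 in both papain and FK506 libraries. Chil3, a chitinase-like protein that IL-4 and IL-13 induce, stood at 90 and 57.4 CPM with papain, against 5.6 and 0 CPM without. Of 28 listed genes of the IL-4 and IL-13 response, 20 and 21 were at 0 in the papain libraries, and only 6 were tested. Of the 6, Retnla and Chil3 (33.3%, against 19.2% of all genes) were higher in both papain libraries and 1 (16.7%, against 14.2%) was lower. The groups overlapped for Il4ra and Socs1.

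Immediate early genes stood lower on balance. Of 32 tested, 11 (34.4%, against 14.2%) were lower in both papain libraries and 3 (9.38%, against 19.2%) higher, with a median log2 difference of -0.54. Zfp36, an RNA-binding protein that shortens the life of cytokine messages, stood at 175.8 and 109.7 CPM with papain, against 383.8 and 370.3 CPM without (log2 difference -1.41 ± 0.47, DESeq2 adjusted p = 0.013). Jund, a transcription factor of the AP-1 family, stood at 123.9 and 14.4 CPM with papain, against 317.6 and 207 CPM without. Ccn2, a matricellular protein that mechanical tension and TGF-beta induce, went the other way, at 550.6 and 346.5 CPM with papain and 217.7 and 70.2 CPM without. The 3 genes did not overlap between groups.

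The nuclear noncoding RNA Malat1 (chr19:5795690-5802672) was among the most abundant transcripts, and it stood at 29636 and 15522 CPM with papain, against 69646 and 95482 CPM without. Both papain libraries lay far below both untreated ones, and the untreated mean was 3.66 times the papain mean (log2 difference -1.90 ± 0.31, limma adjusted p = 0.33, DESeq2 adjusted p = 0.0022). Neat1, which builds nuclear paraspeckles, stood at 44.5 and 32.8 CPM with papain, against 303 and 199 CPM without, a log2 difference of -2.60 ± 0.85. The list of nuclear noncoding RNAs summed to 30418 and 16065 CPM with papain and 70928 and 96691 CPM without, and its part in the other results was not tested. Heat shock genes were divided. Hsp90aa1, an inducible chaperone, stood at 786.7 and 497.2 CPM with papain, against 1232.3 and 2479.5 CPM without, whereas Hspe1, a mitochondrial co-chaperone, stood at 369.5 and 362.9 CPM with papain, against 119 and 134.6 CPM without.

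Of 5 class II antigen presentation genes tested, 4 (80%, against 14.2% of all genes) were lower in both papain libraries and 0 higher. H2-Ab1, a chain of the class II molecule, stood at 22.2 and 18.5 CPM with papain, against 84.2 and 125.4 CPM without, and DESeq2 called no gene of this list. Of 18 genes of NF-kB signalling, 6 (33.3%, against 19.2% of all genes) were higher in both papain libraries and 3 (16.7%, against 14.2%) lower. Nfkb2, a subunit of the noncanonical pathway, stood at 209.6 and 17.4 CPM with papain, against 0 CPM in both untreated libraries, and Traf1, an adaptor of tumour necrosis factor receptors, was listed at 0 with papain, against 59.5 and 50.6 CPM without. Of 24 genes of the unfolded protein response, 5 (20.8%) were higher in both papain libraries, near the 19.2% of all genes. Of the 24, 1 (4.17%, against 14.2%) was lower. Canx (calnexin), a chaperone of the endoplasmic reticulum, stood at 276.4 and 256.3 CPM with papain, against 55 and 75.9 CPM without, a log2 difference of 2.03 ± 0.54.

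**Figure D4:**
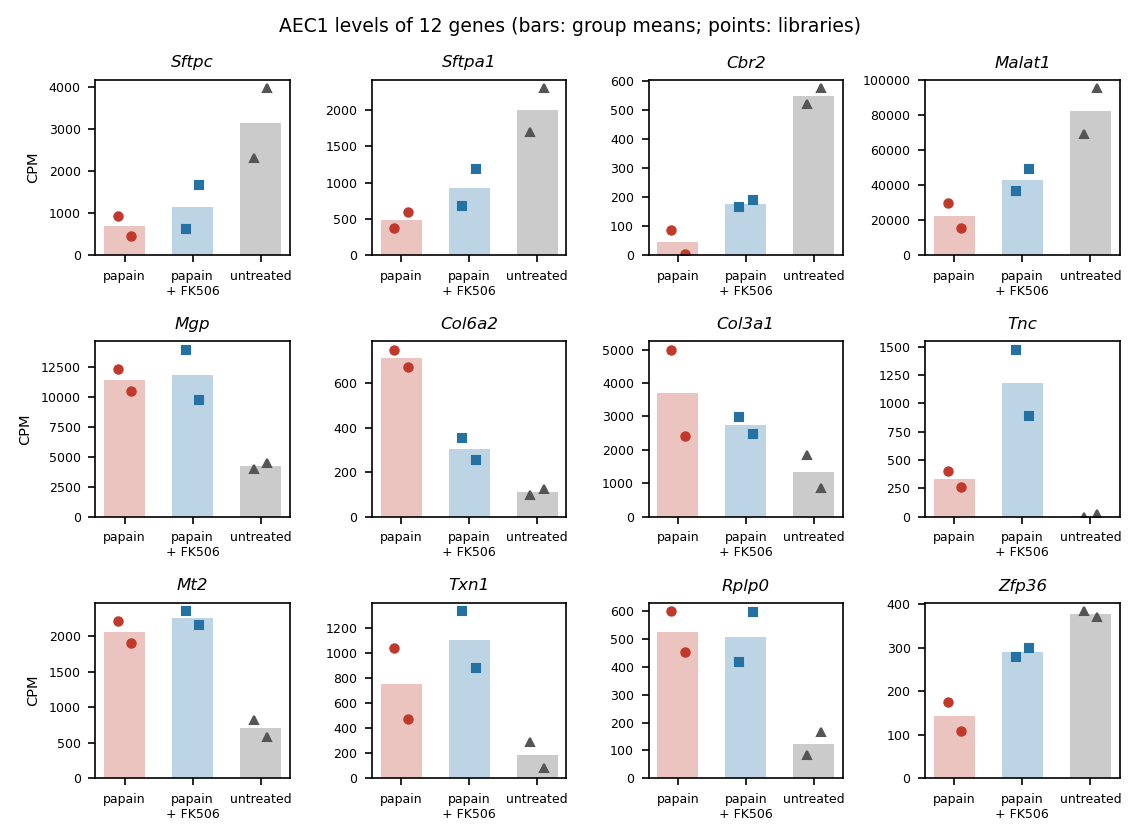
CPM (y axes, starting at 0) of 12 genes in the AEC1 libraries, with the papain group left of the papain and FK506 and the untreated groups, points for the libraries and bars for the means of 2. The top row holds genes lower with papain (Sftpc, Sftpa1, Cbr2, Malat1), Zfp36 at the bottom right is also lower, and the papain and untreated points overlap in none of the 12.

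The 12 genes in the plot of single-gene levels were picked from the lists above, after their values were seen, to show the groups side by side. The papain and FK506 libraries share the papain treatment but their comparison with untreated shares the untreated libraries, so only their levels are given. For Tnc these stood at 1472.6 and 892.9 CPM, above both papain libraries, and for Col6a2 at 352.4 and 256 CPM, below both.

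The comparable libraries of type 2 cells (AEC2) were set beside these results. Among 55 pairs of AEC libraries with recoverable reads, AEC2 papain replicate 2 and AEC2 untreated replicate 2 had the same number of reads in 45.0% of 6534 genes, while no other pair exceeded 0.968%. The AEC2 untreated replicate 1 was deposited as rounded values. Papain against untreated in AEC2 gave 0 of 9841 genes with limma (41, or 0.417%, at an unadjusted p below 0.05). A test of whether the papain effect in AEC1 differed from that in AEC2 called 0 of 9841 genes with limma (456, or 4.63%, at an unadjusted p below 0.05). Without both of the near-identical libraries it again called 0 (984 of 9401 at an unadjusted p below 0.05). Sftpa1 stood at 47225 and 40753 CPM in AEC2 papain libraries, against 27600 and 38675 CPM in AEC2 untreated ones, and its difference of effects was -2.35 ± 0.49 on the log2 scale with all libraries (limma adjusted p = 0.97) and -2.61 without the pair (limma adjusted p = 0.33). No result here was shown to be particular to AEC1.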

How the data were processed

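Gene expression was measured in 28 libraries, of which the 6 AEC1 and, for 1 contrast, the 6 AEC2 libraries were used. Per the submitters' processing notes, STAR 2.7.0c, featureCounts 1.6.0 and the builds mm10 and GRCm38.p6 were used, with no role or setting given. The authors deposited CPM per gene, and for the AEC2 untreated replicate 1 CPM rounded to whole numbers, which was treated as a score. The CPM denominator, the use of strand and the treatment of multi-mapping reads are not given in the sources used here. In each of the other 11 libraries 100% of low values lay at most 0.1 read from a whole number, and this step gave the recovered reads and their depth of 837873 to 968138 in AEC1. Since 1 read is worth about 1 CPM, low values carry large counting errors.

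Genes at 10 CPM or more in at least 2 of the 6 AEC1 libraries were tested (8178 of 22083). TMM factors (edgeR 4.0.16) rescaled the CPM, and limma 3.58.1 was fitted to their log2 with a pseudocount of 2 CPM (trend, two-sided, R 4.3.3), with Benjamini-Hochberg adjustment and a threshold of 0.05. Because of the pseudocount, log2 differences of weakly expressed genes come out too small. edgeR's quasi-likelihood test, DESeq2 1.42.0 and voom were run on the recovered reads. Folds were left out where a group was at 0.

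The replicate numbers of the titles did not pair the libraries (correlations of deviations -0.019 to 0.017), so no block was used. Genes to name were drawn from up to 10 genes per direction with the smallest unadjusted p, no overlap and a mean of 20 CPM, up to 4 members of each described list with the smallest p, and a fixed set of identity and signal genes. The libraries, lists and rules were chosen with earlier results of these data known. Promoter sequences and gene positions are from RefSeq, GRCm38.p6.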

Additional observations from a re-analysis of the deposited data

How the results depend on the processing

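The main count of 0 genes called by limma remained 0 under the other pseudocounts, filters and scalings, without the papain and FK506 libraries, with voom, without ribosomal and mitochondrial RNA (chosen after seeing the data), and with each replicate left out in turn (range 0 to 0, where the lone library is assumed to vary like the other groups). It was 13 with robust limma, 15 with edgeR and 325 with DESeq2; the cause was not tested. With the replicate block it was 0 for limma, 58 for edgeR (49 higher, 9 lower) and 365 for DESeq2, and the samples share only a number. Left-out replicates gave 0 to 5 calls with edgeR and 363 to 546 with DESeq2, of which 174 to 210 were among its 325 calls; these count-test alternatives were chosen after seeing the data. Between cell types the count was 0, and 0 to 1 with each AEC1 replicate left out, the 1 appearing without AEC1 papain replicate 1; the block gave 0. The median log2 difference of all genes ranged from 0 without a filter to 0.37 without papain replicate 2 in limma.

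Of 128 named genes, 4 reversed in at least 1 alternative. With each replicate left out in turn, the log2 difference of Ager ranged from -0.83 (without papain replicate 2) to 1.00 and was -0.25 without untreated replicate 1, and voom gave -0.016. That of Il33 ranged from -4.81 to 0.92 (without papain replicate 1), that of Cxcl2 from -2.63 to 1.93 (without papain replicate 2), with 0.99 in edgeR and 0.93 in DESeq2, and that of Il4ra from -0.12 (without untreated replicate 2) to 6.07. The cause was not tested. With about 1 CPM per read, a gene of a few CPM rests on a few reads per library.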

Other observations

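Several genes outside the described groups were among those with the smallest unadjusted limma p in the lower direction, and none passed limma's adjusted threshold, while DESeq2 called Limk2, Cfap65, Nme7 and Taok3 lower (DESeq2 adjusted p = 1.7e-05, 4.6e-05, 0.00049 and 0.00068, in that order). Limk2, a kinase that phosphorylates cofilin, stood at 2.1 and 0 CPM with papain, against 134.7 and 249.6 CPM without. Nme7, a centrosomal protein, stood at 7.4 and 21.5 CPM with papain, against 198.7 and 218.5 CPM without, and the kinase gene Taok3 at 29.6 and 34.9 CPM with papain, against 224.5 and 227.7 CPM without. Cfap65, a protein of cilia and flagella, was listed at 0 in both papain libraries and stood at 141.4 and 218.5 CPM in the untreated ones. Ank3, which anchors membrane proteins to the spectrin skeleton, stood at 21.2 and 0 CPM with papain, against 308.6 and 235.8 CPM without. In each of these genes both papain libraries lay below both untreated libraries.

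Among signalling receptors, Fgfr2, the epithelial fibroblast growth factor receptor, stood at 4.2 and 0 CPM with papain, against 140.3 and 50.6 CPM without (DESeq2 adjusted p = 0.012). Fgfr1, its mesenchymal counterpart, stood at 159.9 and 70.7 CPM with papain, against 28.1 and 25.3 CPM without. Notch2 stood at 5.3 and 12.3 CPM with papain, against 135.8 and 135.7 CPM without (DESeq2 adjusted p = 0.0094). The 17 tested genes of the Wnt, Fgf, Hedgehog and Notch list included 2 higher (11.8%, against 19.2% of all genes) and 5 lower (29.4%, against 14.2%) in both papain libraries. The tested genes of interferon response (30), class I antigen presentation (11), cholesterol synthesis (20) and oxidative phosphorylation (52) gave 0 to 3 genes higher and 0 to 1 lower at an unadjusted limma p below 0.05, or at most 5.77% higher (5.96% of all genes) and 3.33% lower (3.42%). Of the class I genes, 3 of 11 (27.3%, against 14.2% of all genes) were lower in both papain libraries.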
